A study of Mus musculus with 12 samples.

Results

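Interferon-stimulated genes are the genes that cells switch on in answer to interferons, the cytokines of antiviral defence. The set described here was a list of 47 mouse genes found in the tables by symbol, and all 47 were among the 16246 genes listed in at least 1 of the deposited tables. PolyA RNA was measured by RNA-seq in hearts of male C57Bl/6J mice aged 12 weeks, as 12 libraries in 4 groups of 3. Transverse aortic constriction (TAC) narrows the aorta and loads the left ventricle with pressure, and sham surgery leaves the aorta open. Leucine, isoleucine and valine are the branched-chain amino acids (BCAA), and the 2 diets either lacked them or held them at the level of ordinary chow. The groups were BCAA-free TAC, control diet TAC, BCAA-free sham and control diet sham, each on its diet for 4 days before surgery and for the 2 weeks after it. The labels name no transgene and do not say whether a library is 1 heart or a pool, so a p-value here reflects variation among the libraries alone, part of which may be technical.

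Type I interferons bind a receptor made of IFNAR1 and IFNAR2, whose Janus kinases activate STAT transcription factors, STAT2 among them. With IRF9 these bind the interferon-stimulated response element (ISRE) in promoters, while interferon gamma works through the gamma-activated site (GAS). The genes switched on include sensors of viral nucleic acid, enzymes that block viral replication, guanylate-binding GTPases, the ubiquitin-like modifier ISG15 and the machinery of class I antigen presentation. Several of them (Irf7, Stat2, Irf9, Ifih1, Ddx58) feed back on interferon production or on the response to it. Mouse cardiac macrophages are a known site of an interferon response after myocardial infarction.

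The promoters are shown first because the ISRE is the element that type I interferon responses are known for; not every member held it. A RefSeq promoter window on GRCm38.p6, from 250 bases before to 50 bases after the start site, was found for 36 of the 47 members. The ISRE core, searched as GAAA, any 2 bases and GAAA on either strand, stood in the window of 19 of those 36 members (52.8%), against 3.99% of the 27025 genes with a window. The letters TTCNNNGAA, which read alike in both directions, stood in 8 of the 36 (22.2%), against 9.55% of all. A match describes the letters and is not a measured site, and a window without one says only that these letters are not there. Each stretch below holds the match nearest before the start site with up to 20 bases on each side; capitals mark that core, which reads TTTC, any 2 bases and TTTC where it lies on the opposite strand, and overlapping matches run together. Gbp3, Gbp7, Rsad2 and Trim30a are shown because they passed the test in TAC hearts on the control diet, and the others as members of 3 further roles (RNA binding, ISG15 modification and antigen presentation).
Ifit1: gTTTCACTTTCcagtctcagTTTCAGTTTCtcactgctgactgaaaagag
Ifit3: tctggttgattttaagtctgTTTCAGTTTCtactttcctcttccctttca
Ifit3b: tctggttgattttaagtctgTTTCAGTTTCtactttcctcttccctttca
Rsad2: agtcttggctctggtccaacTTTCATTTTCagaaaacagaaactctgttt
Trim30a: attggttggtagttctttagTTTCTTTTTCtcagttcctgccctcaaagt
Gbp3: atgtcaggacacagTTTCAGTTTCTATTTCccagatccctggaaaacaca
Gbp7: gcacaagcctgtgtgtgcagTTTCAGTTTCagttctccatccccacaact
Isg15: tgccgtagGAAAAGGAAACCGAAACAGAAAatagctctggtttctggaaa
B2m: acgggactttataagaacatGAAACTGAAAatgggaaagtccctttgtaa
These lie at chr19:34640784-34640833 on the plus strand (Ifit1), chr19:34583387-34583436 on the plus strand (Ifit3), chr19:34607783-34607832 on the plus strand (Ifit3b) and chr12:26456543-26456592 on the minus strand (Rsad2). The others lie at chr7:104465200-104465249 on the minus strand (Trim30a), chr3:142559985-142560034 on the plus strand (Gbp3), chr3:142530263-142530312 on the plus strand (Gbp7), chr4:156200855-156200904 on the minus strand (Isg15) and chr2:122147528-122147577 on the plus strand (B2m). The stretches of Ifit3 and Ifit3b, neighbours on chromosome 19, are the same 50 letters. Of the 14 members that passed the test in TAC hearts on the control diet, Ifit2, Irf7, Irf9, Tap1, Trim25 and Ifi44 had a window without the ISRE core, and Zbp1, Mx1 and Parp14 were among the members with no window.

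The values below are normalised read counts, in which a gene's reads are divided by a size factor of its library within a table of 6 libraries. The 4 tables were normalised separately, so a library's value differs between tables by a constant factor. Recovered reads, summed over the genes listed in a table, were 13847107 to 52065900 per library. Surgery was checked on genes known to rise in loaded heart muscle: Nppa, Nppb, Acta1 and Myh7 were higher in all 3 TAC libraries than in all 3 sham libraries on both diets, with an exact permutation p of 0.1 (two-sided), the smallest possible for 3 against 3. Heart muscle was present throughout, with all 10 cardiomyocyte markers tested in every comparison. In whole hearts, fewer cells of a type and less RNA per cell cannot be told apart. The BCAA-free TAC libraries stood apart in a technical measure: the rank correlation over genes between a library's deviation and GC content was 0.20, 0.41 and 0.39 in them, against -0.22 to 0.038 in the other 9. The set's median transcript GC content was 47.5%, against 49.8% for all genes listed.

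TAC on the control diet came with higher levels across the set. Of 47 members, 14 rose and none fell by limma at an adjusted p under 0.05, where 2.95% of the 15397 genes tested rose and 1.09% fell. All 47 had a log2 fold change above 0, as did 49.4% of all genes, with a median of 0.64 against 0.00 over all genes, and 37 had an unadjusted p under 0.05 on the higher side, against 15.1% of all genes. In 35 of 47 members all 3 TAC libraries lay above all 3 sham libraries, against 17.8% of all genes. The authors' deposited table called 34 members higher, against 8.33% of its genes. DESeq2 called 34, limma and edgeR on 12 libraries 33 and 34, and edgeR on the 6 libraries 15. In either direction, calls among all genes were 622 by limma and 2203 by DESeq2. Limma and edgeR on 12 libraries gave 2988 and 3045 such calls, and edgeR on the 6 libraries 549. Oas3 passed the filter on low values only through the TAC libraries, where it was high, so it had to differ; it is counted among the 47, 37, 35 and 34 but not among the 14. Those that rose were Ifih1, Zbp1, Irf7, Irf9, Ifit2, Rsad2, Mx1, Gbp3, Gbp7, Trim25, Trim30a, Parp14, Tap1 and Ifi44.

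Among the sensors, Ifih1, which encodes the double-stranded RNA helicase MDA5 (chr2:62595798-62646255, minus strand), had 288, 358 and 333 normalised reads in the control diet TAC libraries, against 192, 189 and 197 in the control diet sham libraries. Its log2 fold change was 0.75 ± 0.13 (SE, adjusted p = 0.0397), and the sham libraries lay close together well below the TAC libraries. Zbp1, a sensor of Z-form nucleic acid that can start necroptosis (chr2:173206612-173218923, minus strand), had 51.7, 80.8 and 74.8 normalised reads in the control diet TAC libraries, against 23.5, 23.2 and 30.3 in the control diet sham libraries. TAC libraries were 2.69 times the sham mean, with no overlap, at a log2 fold change of 1.38 ± 0.25 (SE, adjusted p = 0.0397). Ddx58, which encodes RIG-I, and Dhx58, which encodes the related LGP2, did not pass, with log2 fold changes of 0.52 (adjusted p = 0.0632) and 0.87 (adjusted p = 0.0514).

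Among the transcription factors, Irf7, the main amplifier of type I interferon production (chr7:141262706-141266481, minus strand), had 449, 769 and 562 normalised reads in the control diet TAC libraries, against 255, 202 and 356 in the control diet sham libraries. The groups did not overlap, replicate 2 of the TAC group was the highest library, and the log2 fold change was 1.13 ± 0.24 (SE, adjusted p = 0.044). Irf9, the DNA-binding partner of STAT2, had 497, 669 and 568 normalised reads in the control diet TAC libraries, against 334, 321 and 407 in the control diet sham libraries, with a log2 fold change of 0.70 ± 0.15 (SE, adjusted p = 0.0433). The log2 fold change of Stat2 was 0.41 (adjusted p = 0.083), while that of Irf1, a factor induced mainly by interferon gamma, was 0.36 (adjusted p = 0.197). Neither passed the test, and the libraries of Irf1 overlapped.

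The IFIT proteins bind viral RNA, and Ifit2 (chr19:34550694-34576419, plus strand) had the smallest p of the set. It stood at 678, 926 and 703 normalised reads in the control diet TAC libraries, against 377, 335 and 413 in the control diet sham libraries, with a log2 fold change of 1.03 ± 0.15 (SE, adjusted p = 0.0339). Ifit1, Ifit3 and Ifit3b had log2 fold changes of 0.88, 0.95 (adjusted p = 0.0631) and 1.00, and did not pass. Ifit3 and Ifit3b share 51.2% and 45.0% of their 50-base stretches with other genes, so how reads were split between them is uncertain. The OAS family makes the oligoadenylates that activate RNase L, and none of its 5 members passed by limma, with a median log2 fold change of 1.00. The authors' deposited table called 4 of them higher, Oas2, Oas3, Oasl1 and Oasl2. Oas3, admitted by its TAC libraries alone, had 14.3, 44.2 and 24.6 normalised reads in the control diet TAC libraries, against 13.1, 3.87 and 4.13 in the control diet sham libraries. Oasl2, a relative with ubiquitin-like domains, stood at a log2 fold change of 1.00 (adjusted p = 0.056).

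Among the antiviral effectors, Rsad2, which encodes viperin, a radical-SAM enzyme that halts viral RNA synthesis (chr12:26442746-26456452, minus strand), had 711, 764 and 746 normalised reads in the control diet TAC libraries, against 506, 388 and 523 in the control diet sham libraries. Its log2 fold change was 0.66 ± 0.13 (SE, adjusted p = 0.042). Mx1, a gene of the dynamin-like GTPase family, had 34.1, 67.9 and 57.3 normalised reads in the control diet TAC libraries, against 19.1, 11.6 and 16.5 in the control diet sham libraries, a log2 fold change of 1.66 ± 0.33 (SE, adjusted p = 0.0419). No library of one group reached the other in either gene. Bst2, which tethers budding virus to the cell, stood at a log2 fold change of 0.52 (adjusted p = 0.274), with sham replicate 3 above 2 of the TAC libraries. Of the interferon-induced GTPases, Gbp3 had 449, 584 and 471 normalised reads in the control diet TAC libraries, against 296, 294 and 326 in the control diet sham libraries, with a log2 fold change of 0.71 ± 0.13 (SE, adjusted p = 0.0397). Gbp7 had 411, 481 and 493 normalised reads in the control diet TAC libraries, against 315, 329.9 and 281 in the control diet sham libraries, with a log2 fold change of 0.58 ± 0.13 (SE, adjusted p = 0.0451). Both rose in all 3 TAC libraries relative to all 3 sham libraries. The ISRE core stood in the windows of both, as printed above, and also in those of Gbp2, Igtp and Irgm1. These last did not pass, with log2 fold changes of 0.56 (adjusted p = 0.0764), 0.23 (adjusted p = 0.422) and 0.25 (adjusted p = 0.207).

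In the ISG15 group, Trim25, the ubiquitin ligase that activates RIG-I, had 1791, 1724 and 1842 normalised reads in the control diet TAC libraries, against 1151, 1334 and 1234 in the control diet sham libraries, a log2 fold change of 0.53 ± 0.10 (SE, adjusted p = 0.0397). Trim30a, a mouse gene that restrains Toll-like receptor signalling (chr7:104409025-104465193, minus strand), had 309, 454 and 374 normalised reads in the control diet TAC libraries, against 229.8, 192 and 175 in the control diet sham libraries, a log2 fold change of 0.92 ± 0.17 (SE, adjusted p = 0.0397). Both gave groups that did not overlap. Isg15 itself had 122, 172 and 128 normalised reads in the control diet TAC libraries, against 75.7, 47.7 and 151 in the control diet sham libraries. Sham replicate 3 lay above 2 TAC libraries, and neither Isg15, with a log2 fold change of 0.76 (adjusted p = 0.211), nor Usp18, the protease that removes ISG15, at 0.75 (adjusted p = 0.0887), passed. Parp14, an ADP-ribosyltransferase, had 705, 799.6 and 796 normalised reads in the control diet TAC libraries, against 584, 543 and 524 in the control diet sham libraries, a log2 fold change of 0.48 ± 0.11 (SE, adjusted p = 0.0462). Its relative Parp12 had the lowest log2 fold change of the set, 0.10 (adjusted p = 0.558). Tap1, which carries peptides to class I molecules, averaged 574 ± 97.6 normalised reads in the control diet TAC libraries and 375 ± 22.5 in the control diet sham libraries (SD, n = 3 each), a log2 fold change of 0.60 ± 0.14 (SE, adjusted p = 0.0487). Ifi44 averaged 195 ± 38.3 normalised reads in the control diet TAC libraries and 103 ± 20.5 in the control diet sham libraries (SD, n = 3 each), a log2 fold change of 0.91 ± 0.21 (SE, adjusted p = 0.0492). B2m, the class I light chain, and Ifi27 did not pass, with log2 fold changes of 0.57 (adjusted p = 0.077) and 0.29 (adjusted p = 0.251).

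The number of members that rose changed whichever library was left out, while their direction changed little. On a common scale of the 12 libraries, control diet TAC replicate 2 was the highest of its group in 41 of 46 members and replicate 1 the lowest in 42. The count of 14 was 25 without TAC replicate 1, 1 without TAC replicate 2, 0 without TAC replicate 3, 0 without sham replicate 1, 0 without sham replicate 2 and 2 without sham replicate 3. Over all genes the calls moved likewise, between 0 and 1091 against 622. The members' median stayed between 0.56 and 0.75, and no fewer than 46 of 47 were above 0. Macrophage and monocyte markers stood at a median of 0.48 in the same comparison, with 1 of 13 tested called (Csf1r), and their sum was 10688 to 13889 normalised reads in TAC libraries, against 7425 to 11819 in sham libraries. Fibroblast markers summed to 19683 to 24939 in TAC libraries, against 14933 to 18192 in sham libraries, with 1 of 5 called higher (Lum). Endothelial markers summed to 32212 to 32420 in TAC libraries, against 27475 to 28410 in sham libraries, with none of 8 called. Cardiomyocyte markers summed to 1876500 to 2251800 in TAC libraries, against 2477900 to 2553400 in sham libraries, with 1 of 10 called lower (Tnni3). For comparison, 2.95% of all genes rose and 1.09% fell. Macrophage sums overlapped between the groups and the other sums did not. The part of these cells in the result was not tested.

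**Figure D1:**
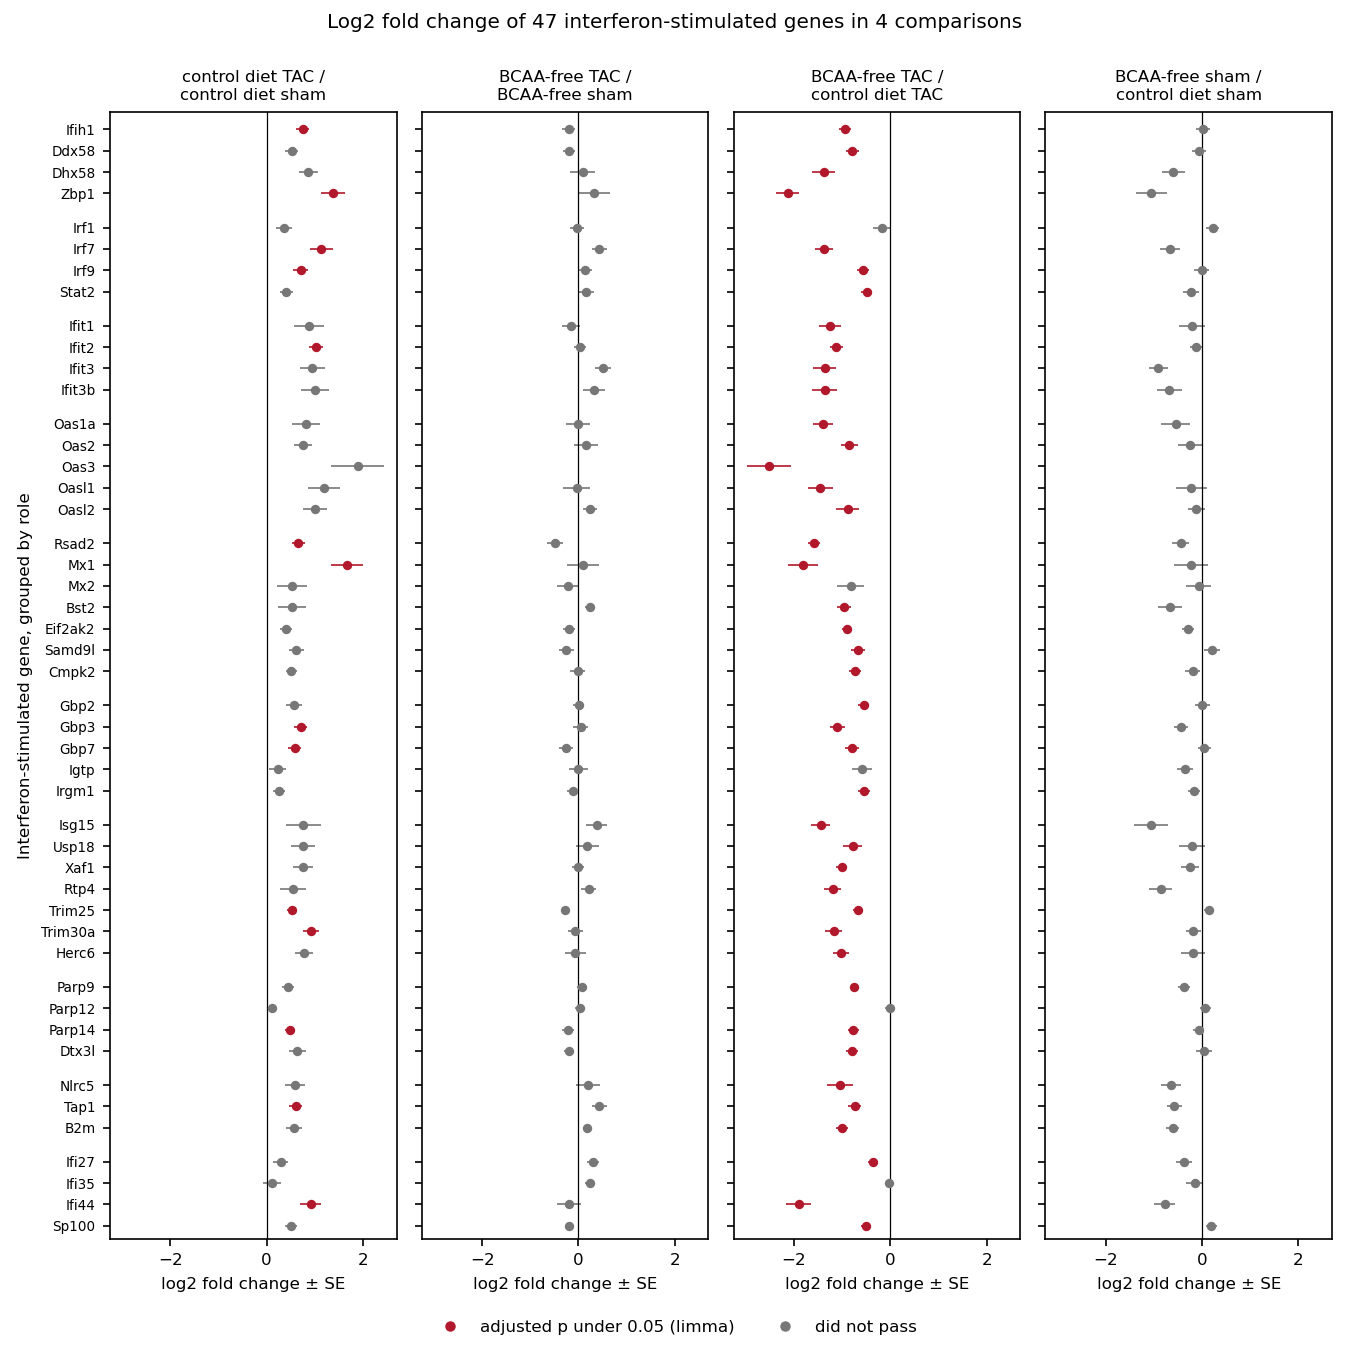
Log2 fold change with its standard error (x axis) of each of the 47 members (y axis, grouped by role: sensors, transcription factors, IFIT, OAS, antiviral effectors, GTPases, ISG15 system, PARP, antigen presentation, others) in 4 comparisons named above the panels; red points passed limma at an adjusted p under 0.05 and grey points did not. The first panel lies wholly right of 0 with 14 red points, the second scatters about 0 with none, the third lies wholly left of 0 with 42 and the fourth has none.

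TAC on the BCAA-free diet came with no call in the set. Of 46 members tested (Oas3 was not analysed here in that comparison), none rose and none fell by limma, where 3.34% and 2.89% of all genes did. At an unadjusted p under 0.05 there were 6 on the higher and 2 on the lower side, against 12.2% and 12.3%; edgeR called none and DESeq2 called 1, Rsad2, lower. Among all genes DESeq2 called 1490 in either direction and edgeR on the 6 libraries 985, against 977 by limma. Far fewer were called by limma and edgeR on 12 libraries, 59 and 62, and after correction for GC content and transcript length, 85. The median log2 fold change of the members was 0.01, with 24 members above 0 and 22 below, against 50.2% and 49.8% of all genes. The groups did not overlap in 6 members on the higher side and 4 on the lower side, against 14.6% and 15% of all genes. The authors' deposited table called 1 member lower, against 4.43% of its genes, and none higher, against 4.76%.

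The 4 members with the smallest p were Ifit3, Trim25, Rsad2 and Irf7, and they did not share a direction. Ifit3 had 176, 215 and 175 normalised reads in the BCAA-free TAC libraries, against 157, 122 and 119.9 in the BCAA-free sham libraries, with a log2 fold change of 0.51 ± 0.16 (SE, adjusted p = 0.0789). Trim25 had 1324, 1490.4 and 1161 normalised reads in the BCAA-free TAC libraries, against 1659, 1614 and 1513 in the BCAA-free sham libraries, a log2 fold change of -0.27 ± 0.09 (SE, adjusted p = 0.097). In both genes the groups did not overlap, but in opposite directions. Rsad2 had 269, 347 and 256 normalised reads in the BCAA-free TAC libraries, against 521, 364 and 346 in the BCAA-free sham libraries, a log2 fold change of -0.48 ± 0.17 (SE, adjusted p = 0.108), and BCAA-free TAC replicate 2 reached the range of sham. Irf7 had 235, 290.2 and 266 normalised reads in the BCAA-free TAC libraries, against 243, 169 and 181 in the BCAA-free sham libraries, a log2 fold change of 0.43 ± 0.16 (SE, adjusted p = 0.115), and 1 BCAA-free TAC library lay below the highest sham library. Ifih1 stood at a log2 fold change of -0.21, Zbp1 at 0.33, Mx1 at 0.09, Isg15 at 0.38, Tap1 at 0.43 and B2m at 0.18, with adjusted p of 0.396, 0.583, 0.9, 0.323, 0.115 and 0.256 in the same order. The other members fixed for naming had log2 fold changes between -0.22 (Parp14) and 0.30 (Ifi27), with Stat2 at 0.15, Oasl2 at 0.24, Bst2 at 0.24, Usp18 at 0.18 and Gbp2 and Igtp both at 0.00. Macrophage and monocyte markers were at a median of 0.29 with 3 of 13 called higher (C1qa, C1qb and C1qc, the complement C1q chains), and their sum was 7935 to 9396 normalised reads in BCAA-free TAC libraries against 6771 to 7813 in BCAA-free sham libraries. Here 3.34% of all genes rose and 2.89% fell. Of the other markers, Mybpc3, Actc1 and Tnnc1 of the 10 cardiomyocyte markers and the globin gene Hba-a2 were higher, and endothelial Tek and fibroblast Pdgfra were lower. Their part was not tested.

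The difference between the 2 TAC responses was tested by the interaction of diet and surgery over 12 libraries. It was lower for 13 of 46 members and higher for none, where 3.73% of 15195 genes were lower and 4.92% higher, and 28 members had an unadjusted p under 0.05 on the lower side against 14.1%. A negative value means that the log2 response to TAC was smaller on the BCAA-free diet. The median was -0.69 against -0.03 over all genes, and 44 of 46 members lay below 0, against 52.6% of all genes. The exceptions, Ifi35 with an interaction of 0.13 and Ifi27 at 0.01, did not pass.

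Trim25 had the smallest p, with an interaction of -0.80 ± 0.14 (SE, adjusted p = 0.00925): its log2 fold change after TAC was -0.27 on the BCAA-free diet and 0.53 on the control diet. Ifih1 followed with an interaction of -0.96 ± 0.19 (SE, adjusted p = 0.0151) and log2 fold changes after TAC of -0.21 on the BCAA-free diet and 0.75 on the control diet. For both, the log2 fold change lay below 0 on the BCAA-free diet. Ifit2 had an interaction of -0.999 ± 0.20 (SE, adjusted p = 0.0154), with log2 fold changes after TAC of 0.03 and 1.03 on the BCAA-free and control diets. Rsad2 had an interaction of -1.14 ± 0.23 (SE, adjusted p = 0.0167), with log2 fold changes after TAC of -0.48 and 0.66 on the BCAA-free and control diets. Sp100, a nuclear-body protein, had an interaction of -0.69 ± 0.16 (SE, adjusted p = 0.0231), and Gbp7 at -0.84 ± 0.20 (SE, adjusted p = 0.024). The other members called were Parp14, Trim30a, Samd9l, Dtx3l, Ddx58, Eif2ak2 and Mx1, the last with the lowest value, -1.57 ± 0.44 (SE, adjusted p = 0.0432). Zbp1, Irf7 and Isg15 did not pass, with interactions of -1.05 (adjusted p = 0.0838), -0.70 (adjusted p = 0.156) and -0.38 (adjusted p = 0.605). By role, calls fell in the antiviral effectors (4 of 7), sensors (2 of 4), PARP group (2 of 4), ISG15 group (2 of 7), and in 1 member each of the IFIT, GTPase and other genes. No transcription factor, OAS or antigen presentation member passed.

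After correction of every library for GC content and for transcript length, 3 of the 13 (Ifit2, Rsad2 and Trim25) passed, and all 46 were below 0 at a median of -0.54. Without control diet TAC replicate 2 the count was 7, without control diet TAC replicate 3 it was 4, without BCAA-free sham replicate 1 it was 4, without BCAA-free sham replicate 2 it was 5, and without BCAA-free TAC replicate 3 it was 3. Over all genes the calls also became fewer, at 638 against 1314 after the correction, and at 635, 635, 296, 278 and 216 without those libraries in the same order. Macrophage and monocyte markers had a median interaction of -0.29 with none of 13 called, and 2 of 5 fibroblast markers, Dcn and Pdgfra, were lower. The shares over all genes were 3.73% lower and 4.92% higher. Of 10 cardiomyocyte markers, at a median interaction of 0.44, Myl2 and Tnni3 were higher, as were Hba-a2 and Cox6a2, a gene listed for plasmacytoid dendritic cells that heart muscle also expresses. The part of these cells was not tested.

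**Figure D2:**
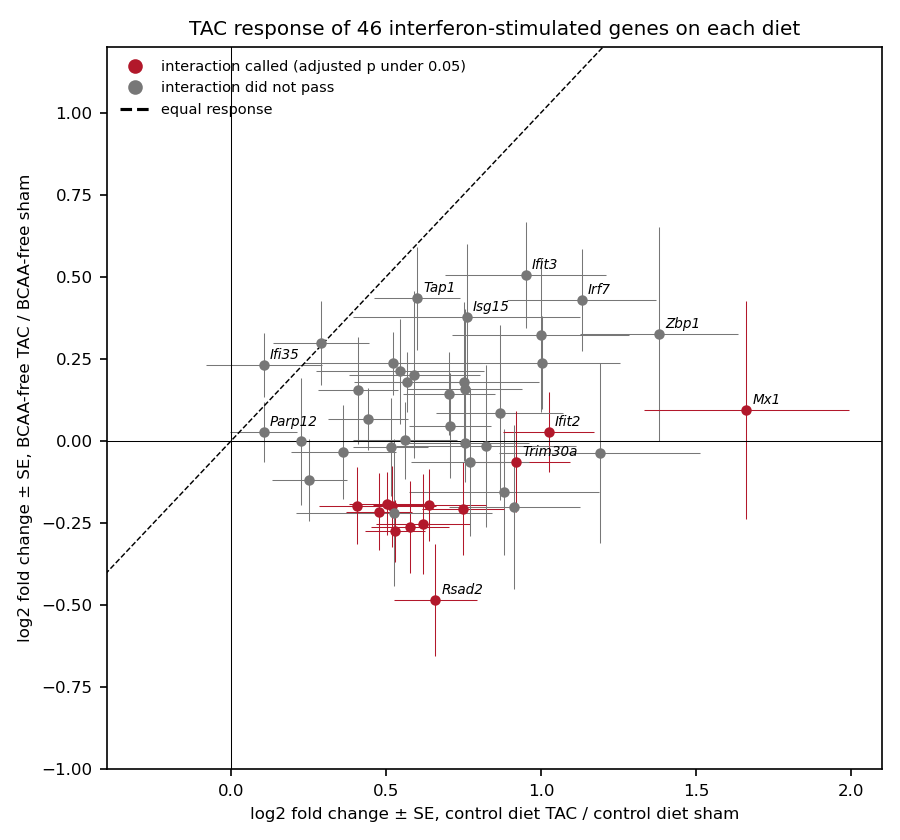
Log2 fold change after TAC with its standard error for 46 members on the BCAA-free diet (y axis) and the control diet (x axis); red points passed the interaction at an adjusted p under 0.05, and the dashed line marks an equal response. The x values are all above 0 while the y values lie on both sides of it, and nearly every point lies under the line.

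After TAC, the BCAA-free diet came with lower levels in nearly the whole set. By limma 42 of 47 members fell and none rose, where 17.7% of 15872 genes fell and 16.5% rose. All 47 had a log2 fold change below 0, against 50% of all genes, with a median of -0.90 against 0.00 over all genes. In 43 members every BCAA-free TAC library lay below every control diet TAC library, against 25.6% of all genes. The authors' deposited table called 44 members lower, against 18.4% of its genes. The 5 that did not pass were Ifi35, Igtp, Irf1, Mx2 and Parp12. Oas3 again passed the filter only through the control diet TAC libraries, so it had to differ; it is counted among the 47, 44, 43 and 42. This comparison shares its control diet TAC libraries with the first one, and all 14 members that rose there were among the 42.

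All 4 sensors fell. Zbp1 had 17.1, 17.9 and 19.7 normalised reads in the BCAA-free TAC libraries, against 63.3, 98.2 and 91.1 in the control diet TAC libraries, 0.217 times the control diet mean, with a log2 fold change of -2.12 ± 0.24 (SE, adjusted p = 0.00102). Ifih1 had 207, 232 and 183 normalised reads in the BCAA-free TAC libraries, against 353, 435 and 405 in the control diet TAC libraries, a log2 fold change of -0.94 ± 0.13 (SE, adjusted p = 0.00187). In both, the highest BCAA-free library stayed far under the lowest control diet library. Ddx58 and Dhx58 had log2 fold changes of -0.79 ± 0.13 (SE, adjusted p = 0.00304) and -1.38 ± 0.24 (SE, adjusted p = 0.00391). Of the transcription factors, Irf7 had 244, 301 and 275 normalised reads in the BCAA-free TAC libraries, against 549, 935 and 685 in the control diet TAC libraries, a log2 fold change of -1.37 ± 0.18 (SE, adjusted p = 0.0018). Stat2 and Irf9 had log2 fold changes of -0.49 ± 0.11 (SE, adjusted p = 0.0119) and -0.57 ± 0.12 (SE, adjusted p = 0.0082). Irf1 stood at a log2 fold change of -0.17 (adjusted p = 0.507), with overlapping libraries.

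All 4 IFIT and all 5 OAS members passed the test on the lower side, Oas3 with the limit just given. Ifit2 had 399, 479 and 403 normalised reads in the BCAA-free TAC libraries, against 829, 1125 and 857 in the control diet TAC libraries, a log2 fold change of -1.12 ± 0.13 (SE, adjusted p = 0.00112). Ifit3 stood at a log2 fold change of -1.36 ± 0.24 (SE, adjusted p = 0.00497), and Ifit1 and Ifit3b at -1.25 and -1.36. Oas3 had few reads, with 3.01, 4.27 and 6.91 normalised reads in the BCAA-free TAC libraries, against 17.5, 53.7 and 29.9 in the control diet TAC libraries. Oasl1, which in the mouse restrains translation of Irf7, stood at a log2 fold change of -1.45, Oas1a at -1.39, Oasl2 at -0.89 ± 0.23 (SE, adjusted p = 0.0217) and Oas2 at -0.85. Oas1a shares 57.6% of its 50-base stretches with other genes, mainly Oas1g, so its own reads are uncertain.

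Rsad2 had the smallest p of the set. It stood at 279, 360.2 and 266 normalised reads in the BCAA-free TAC libraries, against 869.6, 929 and 909 in the control diet TAC libraries, 0.334 times the control diet mean, with a log2 fold change of -1.59 ± 0.12 (SE, adjusted p = 0.000217). The lowest control diet library was above 2 times the highest BCAA-free library. Eif2ak2, which encodes PKR, the kinase that stops translation on sensing double-stranded RNA, had 299, 324 and 275 normalised reads in the BCAA-free TAC libraries, against 510.2, 612 and 554 in the control diet TAC libraries, a log2 fold change of -0.90 ± 0.11 (SE, adjusted p = 0.00122). Mx1 stood at a log2 fold change of -1.81 ± 0.31 (SE, adjusted p = 0.00371) and Bst2 at -0.96 ± 0.15 (SE, adjusted p = 0.00272), while Samd9l and Cmpk2, a mitochondrial nucleotide kinase beside Rsad2 on chromosome 12, had log2 fold changes of -0.67 and -0.73. Mx2 stood at a log2 fold change of -0.82 (adjusted p = 0.0508). Of the GTPases, Gbp3 had 289, 338 and 230.0 normalised reads in the BCAA-free TAC libraries, against 549, 709.9 and 574 in the control diet TAC libraries, a log2 fold change of -1.10 ± 0.16 (SE, adjusted p = 0.00192). Gbp2, Gbp7 and Irgm1 also fell, with log2 fold changes of -0.55, -0.79 and -0.54, and Igtp, which overlaps Irgm2 on the same strand, stood at a log2 fold change of -0.58 (adjusted p = 0.0587).

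All 7 members of the ISG15 group fell. Isg15 (chr4:156199424-156200818, minus strand) had 54.2, 56.3 and 77.0 normalised reads in the BCAA-free TAC libraries, against 149, 209.6 and 156 in the control diet TAC libraries, a log2 fold change of -1.45 ± 0.20 (SE, adjusted p = 0.0019). Xaf1, a pro-apoptotic gene, had 245, 248 and 245 normalised reads in the BCAA-free TAC libraries, against 423, 534 and 543 in the control diet TAC libraries, a log2 fold change of -1.01 ± 0.12 (SE, adjusted p = 0.00114). No BCAA-free library of either gene reached a control diet library. Usp18 stood at a log2 fold change of -0.78 ± 0.20 (SE, adjusted p = 0.0157); Herc6, the mouse ligase for ISG15, at -1.03; and Rtp4, Trim30a and Trim25 at -1.19, -1.17 and -0.67. Parp9 had 497, 534 and 488 normalised reads in the BCAA-free TAC libraries, against 818, 908 and 832 in the control diet TAC libraries, a log2 fold change of -0.75 ± 0.09 (SE, adjusted p = 0.00107). Dtx3l, the ubiquitin ligase that works in a complex with Parp9, stood at a log2 fold change of -0.79 and Parp14 at -0.76 ± 0.12 (SE, adjusted p = 0.00263). Parp9 and Dtx3l overlap on opposite strands, and the sources used here do not say whether counting used strand, so their reads cannot be told apart there. Other members also overlap a listed gene, among them Irf7 (Phrf1) and Tap1 (Psmb9) on opposite strands and Irf9 (Rnf31) on the same strand. For these too the split of reads is uncertain. Parp12 stood at a log2 fold change of -0.01 (adjusted p = 0.909), with no difference in mean beyond the spread.

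The 3 antigen presentation members fell. B2m (chr2:122147686-122153083, plus strand) had 3259, 3597 and 3834 normalised reads in the BCAA-free TAC libraries, against 5964, 8587 and 6992 in the control diet TAC libraries, 0.496 times the control diet mean and a log2 fold change of -0.998 ± 0.13 (SE, adjusted p = 0.00156). Tap1 stood at a log2 fold change of -0.74 ± 0.14 (SE, adjusted p = 0.00566), and Nlrc5, the transactivator of class I genes, at -1.05. Of the remaining members, Ifi44 had 66.2, 85.3 and 42.4 normalised reads in the BCAA-free TAC libraries, against 191, 283 and 239 in the control diet TAC libraries, a log2 fold change of -1.90 ± 0.26 (SE, adjusted p = 0.00179). Sp100 stood at a log2 fold change of -0.50 and Ifi27, a mitochondrial protein, at -0.36 ± 0.10 (SE, adjusted p = 0.0225). Ifi35 stood at a log2 fold change of -0.03 (adjusted p = 0.838).

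The count of 42 lay between 39 and 44 with each library left out, and 42 passed after correction for GC content and length, of which 41 were the same genes. All-gene calls lay between 3369 and 5269 with each library left out and were 4709 after the correction, against 5435. Scaling to library totals alone moved the median of all genes by -0.13 and that of the set to -1.02, with 44 members lower and 5261 of all genes called. Other markers moved in the same comparison. Of 14 macrophage and monocyte markers 13 fell, at a median of -0.74, and their sum was 8235 to 9748 normalised reads in BCAA-free TAC libraries, against 13080 to 16881 in control diet TAC libraries. Of 8 endothelial markers 5 fell, of 5 fibroblast markers 4 fell, and 6 of 10 cardiomyocyte markers rose. In this comparison 17.7% of all genes fell and 16.5% rose. Of the 3 B cell and 4 neutrophil markers tested none was called. Hba-a2 and Cox6a2 were higher. Of 10 T and NK cell markers 3 were analysed, at a median of -0.80, and 1 of them, Cd4, fell, with a sum of 41.1 to 58.9 normalised reads in BCAA-free TAC libraries against 66.5 to 76.7 in control diet TAC libraries. The part of these cells in the set's lower levels was not tested.

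**Figure D3:**
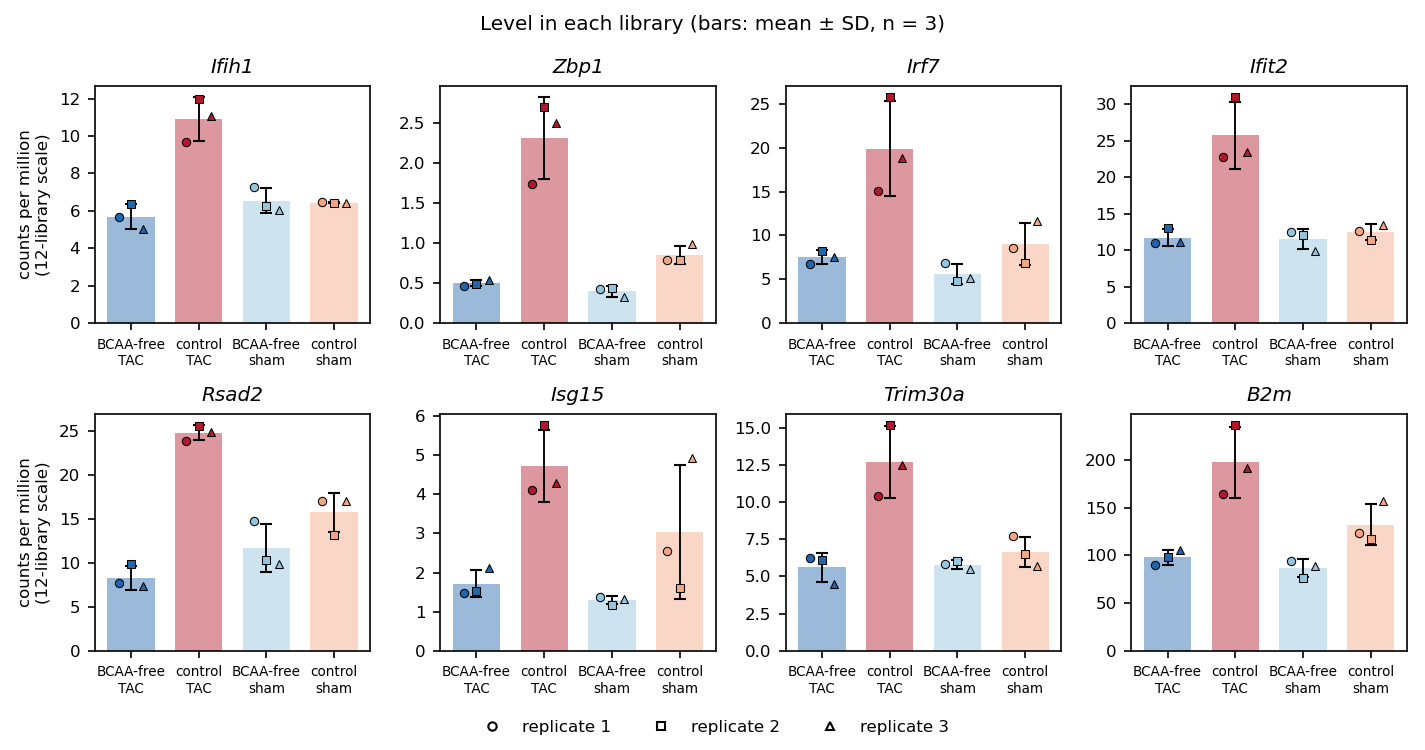
CPM, reads scaled to a common library size, over 12 libraries (y axis) for 8 members, 1 panel each, in the BCAA-free TAC, control diet TAC, BCAA-free sham and control diet sham groups (x axis); bars are means with SD (n = 3) and symbols are libraries. In each panel the control diet TAC group has the highest mean. In every panel but Ifih1 the means of both BCAA-free groups lie below those of both control diet groups. Only in Zbp1 and B2m does every BCAA-free library lie below every control diet library.

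After sham surgery the BCAA-free diet gave no call in the set. Of 46 members none fell or rose by limma, where 0.375% of 15217 genes fell and 0.25% rose. At an unadjusted p under 0.05 there were 17 members lower, against 8.02% of all genes, and none higher, against 8.58%; edgeR on the 6 libraries called none and DESeq2 called 6 lower (B2m, Bst2, Ifi44, Ifit3, Isg15 and Rtp4). Among all genes DESeq2 called 531 in either direction and edgeR on the 6 libraries 91, against 95 by limma. The median log2 fold change of the members was -0.22, with 37 members below 0, against 50% of all genes. In 15 members every BCAA-free library lay below every control diet library, against 11.3% of all genes. The authors' deposited table called 6 members lower, against 1.79% of its genes.

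The smallest p belonged to Ifit3, B2m, Ifi44 and Tap1. Ifit3 had 129, 100.5 and 98.5 normalised reads in the BCAA-free sham libraries, against 189, 175 and 259.5 in the control diet sham libraries, a log2 fold change of -0.91 ± 0.19 (SE, adjusted p = 0.0583). B2m had 2718, 2193 and 2579.8 normalised reads in the BCAA-free sham libraries, against 3539, 3338 and 4609.7 in the control diet sham libraries, a log2 fold change of -0.61 ± 0.14 (SE, adjusted p = 0.0625). Control diet sham replicate 3 was the highest library for both. Ifi44 had 53.6, 62.0 and 55.0 normalised reads in the BCAA-free sham libraries, against 108, 77.4 and 113 in the control diet sham libraries, a log2 fold change of -0.78 ± 0.21 (SE, adjusted p = 0.107). Tap1 had 301, 237 and 199 normalised reads in the BCAA-free sham libraries, against 341, 386 and 357 in the control diet sham libraries, a log2 fold change of -0.57 ± 0.16 (SE, adjusted p = 0.115). In these 4 genes the groups did not overlap. Isg15 and Zbp1 had the lowest log2 fold changes, -1.06 (adjusted p = 0.179) and -1.05 (adjusted p = 0.147), and Irf1 the highest, at 0.23 (adjusted p = 0.438). Of the other members fixed for naming, Bst2 stood at a log2 fold change of -0.67, Irf7 at -0.67, Rsad2 at -0.44, Ifi27 at -0.37, Igtp at -0.35, Stat2 and Mx1 both at -0.23, Usp18 at -0.21, Oasl2 at -0.12, Parp14 at -0.07, Gbp2 at 0.01 and Ifih1 at 0.02. Control diet sham replicate 3 was the highest of its group in 30 of 46 members; without it the median was -0.14 and 1 member, B2m, passed. Without control diet sham replicate 2 the median was -0.35 and 4 passed (B2m, Ifit3, Isg15 and Rtp4). Of all genes, 475 were called without control diet sham replicate 3 and 211 without replicate 2, against 95. Macrophage and monocyte markers had a median of -0.70 with none of 13 called, and their sum was 5559 to 6418 normalised reads in BCAA-free sham libraries, against 7188 to 11313 in control diet sham libraries; no marker of the other cell types was called, and the part of these cells was not tested.

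On the common scale of 12 libraries (CPM, the reads of each library scaled to a common library size with TMM), the control diet TAC group had the highest mean in 46 of 46 members. Below it, control diet sham came next and both BCAA-free groups last in most members: in 21 with BCAA-free sham the lowest, and in 14 with BCAA-free TAC the lowest. The other members had other orders, and control diet sham was lowest in 3. Zbp1, one of the members with the commonest order, had 0.468, 0.490 and 0.544 CPM in BCAA-free TAC and 1.74, 2.71 and 2.497 in control diet TAC libraries. It had 0.422, 0.444 and 0.321 in BCAA-free sham and 0.789, 0.787 and 0.986 in control diet sham libraries. Both BCAA-free groups lay under both control diet groups, and BCAA-free TAC lay narrowly above BCAA-free sham. Ifih1 had 5.67, 6.35 and 5.03 CPM in BCAA-free TAC and 9.68, 12.0 and 11.1 in control diet TAC libraries. It had 7.30, 6.29 and 6.04 in BCAA-free sham and 6.46, 6.43 and 6.41 in control diet sham libraries. The control diet TAC group stood well clear of the other groups. BCAA-free sham overlapped both BCAA-free TAC and control diet sham, while BCAA-free TAC lay narrowly below control diet sham. Across the set, the median deviation of a library from the 12-library mean was -0.32, -0.17 and -0.36 (log2) in BCAA-free TAC and 0.40, 0.90 and 0.62 in control diet TAC libraries. It was -0.23, -0.34 and -0.33 in BCAA-free sham and -0.05, -0.15 and 0.14 in control diet sham libraries.

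**Figure D4:**
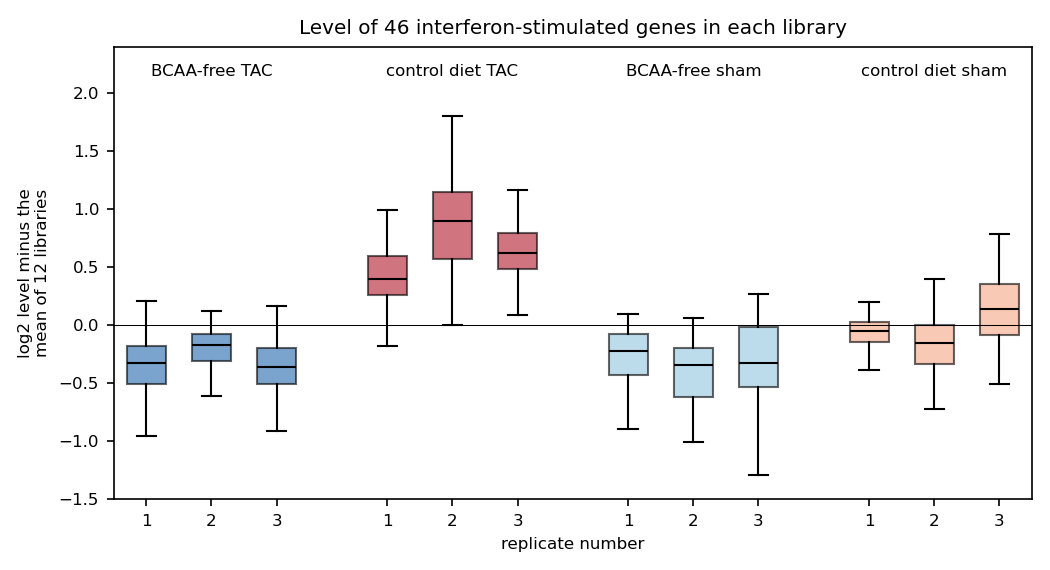
Log2 level of 46 members minus each member's mean over 12 libraries (y axis), 1 box per library (x axis: replicate number within its group); boxes span the quartiles of the members, lines the median, and whiskers reach the last value within 1.5 box lengths. The 3 control diet TAC medians are 0.40, 0.90 and 0.62, and the other 9 lie between -0.36 and 0.14.

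The rest of the pathway was read from fixed lists. None of the 9 interferon ligand genes on the list was among the genes listed in any of the 4 comparisons, so none was tested. Of 8 receptor and Janus kinase genes, 1 rose after TAC on the control diet, where 2.95% of all genes did: Ifngr1, the ligand-binding chain of the interferon gamma receptor, with a log2 fold change of 0.55 ± 0.12 (SE, adjusted p = 0.0453). On the BCAA-free diet after TAC, Ifngr1 and Ifnar1 fell, with log2 fold changes of -0.62 ± 0.09 (SE, adjusted p = 0.00187) and -0.48 ± 0.10 (SE, adjusted p = 0.00708), against 17.7% of all genes, and Il10rb, a chain of the interferon lambda receptor, rose with a log2 fold change of 0.35 ± 0.11 (SE, adjusted p = 0.0305). The interaction of Ifngr1 was -0.58 ± 0.15 (SE, adjusted p = 0.0313). Of 11 other STAT, IRF and SOCS genes none was called after TAC on either diet, and 7 fell and 1 rose with the BCAA-free diet after TAC, against 17.7% and 16.5% of all genes. Irf3, which turns on interferon beta, rose with a log2 fold change of 0.53 ± 0.09 (SE, adjusted p = 0.00374). Stat3 fell with a log2 fold change of -0.46 ± 0.09 (SE, adjusted p = 0.00538), Irf5 at -0.79, Ptpn2, a phosphatase of Janus kinase signalling, at -0.41, and Irf8, a factor of macrophage identity, at -0.70.

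Of 13 listed genes of the nucleic acid sensing relay, 4 fell with the BCAA-free diet after TAC, against 17.7% of all genes. These were Tmem173, which encodes STING, with a log2 fold change of -1.07 ± 0.23 (SE, adjusted p = 0.00901), Traf3 at -0.73, Tlr3 at -0.67 and Tlr9 at -1.24. After TAC on the control diet, Ikbke, a kinase that activates IRF3 and IRF7, rose with a log2 fold change of 1.05 ± 0.24 (SE, adjusted p = 0.0495). Of 13 class I and immunoproteasome genes outside the set, 8 fell and 1 rose with the BCAA-free diet after TAC, against 17.7% and 16.5% of all genes. H2-K1 and H2-D1, the classical class I heavy chains, fell with log2 fold changes of -0.66 ± 0.12 (SE, adjusted p = 0.00531) and -0.63 ± 0.12 (SE, adjusted p = 0.00482), and H2-Q4, H2-Q6 and H2-T23 at -0.74, -1.31 and -0.36. Class I genes are near copies of each other, so their counts are uncertain. Psme1, a proteasome activator subunit, rose with a log2 fold change of 0.31 ± 0.11 (SE, adjusted p = 0.0497), and its interaction was 0.56 ± 0.15 (SE, adjusted p = 0.0366). Psmb10, an immunoproteasome subunit, fell with a log2 fold change of -0.38. It rose after TAC on the BCAA-free diet, with a log2 fold change of 0.33 ± 0.09 (SE, adjusted p = 0.045), as did Psme2, the partner of Psme1, at 0.38 ± 0.07 (SE, adjusted p = 0.0194), the only calls of the 4 listed pathway groups there. In the diet comparison after sham, H2-Q6 was the only call of these groups, with a log2 fold change of -1.12 ± 0.21 (SE, adjusted p = 0.0488).

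**Figure D5:**
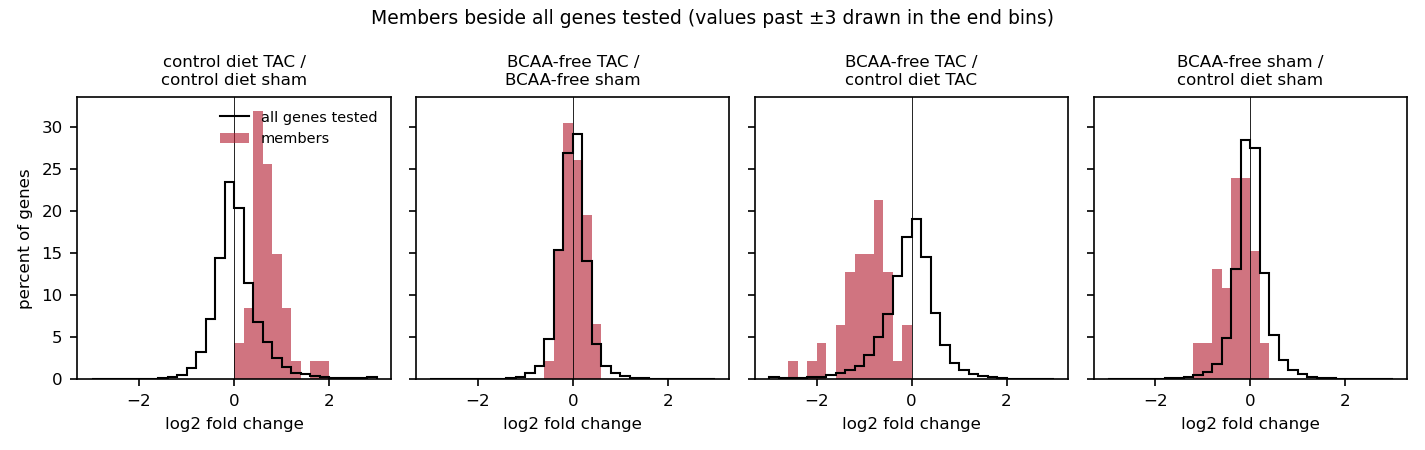
Percent of genes (y axis) by log2 fold change in bins of 0.2 (x axis) for the members (red bars) and all genes tested (black line) in the 4 comparisons named above the panels. The members' medians are 0.64, 0.01, -0.90 and -0.22 in the order of the panels, while the medians of all genes lie at 0.00.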

How the data were processed

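Per the labels' protocols, hearts were extracted with Trizol and polyA RNA was sequenced. The tools listed in the submitters' processing notes are STAR 2.5.2b, Subread 1.5.2, Trimmomatic 0.36 and DESeq2, and the builds listed are mm10 and GRCm38; what each tool did, and the strand setting, is not given in the sources used here. The authors deposited 4 tables of 6 libraries, 1 per pair of groups; the deposited signal is a normalized read count, a gene's count divided by a size factor. Each value was a whole number of reads within 0.01, and these reads were the same in a library's 2 tables. The deposited log2 fold changes and p-values are the authors' own and served only for counts of their calls (adjusted p under 0.05).

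Each pair of groups was tested with limma 3.58.1 (R 4.3.3; trend and robust variances) on log2(value + 1), within 1 table, for genes averaging 10 or more, with Benjamini-Hochberg adjustment over all genes. Fold changes are on that scale, which understates low genes. For the interaction, the TAC tables of both diets were joined (12 libraries). Alternatives were TMM-rescaled values, library totals, no filter, a filter of 100, blocking on the replicate number, adding 10 instead of 1, edgeR 4.0.16 and DESeq2 1.42.0 on recovered reads, limma on 12 libraries, correction for GC content and length (natural splines), and each library left out. CPM are recovered reads scaled by TMM. The scripts were tested on simulated counts. Gene positions came from GENCODE M21 on GRCm38.

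The members, lists and tests were chosen with earlier results of these data known. Named are called members (per-library values for the 12 smallest p), 17 fixed members, the 4 smallest p where fewer were called, the 6 smallest for the interaction, up to 6 called genes per pathway list, and members that went against the others. A gene of a pathway list that this rule names is not reported here.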

Additional observations from a re-analysis of the deposited data

Results flagged for a closer look

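The response to TAC differed between the BCAA-free and the control diet, by the interaction test in limma, for 13 members. The interaction, as the log2 response on the BCAA-free diet minus that on the control diet, was -1.57 for Mx1, -1.14 for Rsad2, -0.999 for Ifit2, -0.98 for Trim30a, -0.96 for Ifih1 and -0.87 for Samd9l. It was -0.84 for Gbp7, -0.83 for Dtx3l, -0.80 for Trim25, -0.72 for Ddx58, -0.69 for Sp100, -0.69 for Parp14 and -0.60 for Eif2ak2. Of these, Ifit2, Rsad2 and Trim25 also passed after correction for GC content and length.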

How the results depend on the processing

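The 42 members lower with the BCAA-free diet after TAC changed least: 37 to 44 passed under the alternatives that keep all libraries and 39 to 44 with a library left out. Calls over all genes, in either direction, were 4640 to 5591 and 3369 to 5269 in the same order, against 5435. The 14 members higher after TAC on the control diet were 32 with library totals alone (which moved the median of all genes by 0.15), 34 by DESeq2, 33 by limma on 12 libraries, 34 by edgeR on 12 libraries, 24 after correction for GC content and length, and 0 to 25 with a library left out. Among all genes the calls were 1416, 2203, 2988, 3045, 1483 and 0 to 1091 in the same order, against 622. For TAC on the BCAA-free diet DESeq2 called 1 member lower, and leaving out a library gave 0 to 1 higher (Ifi27, without BCAA-free sham replicate 3). All-gene calls there were 1490 by DESeq2 and 48 to 1184 with a library left out, against 977. They were 59 by limma and 62 by edgeR on 12 libraries, and 85 after correction for GC content and length, with no member called. For the diet after sham the count lower was 1 with the replicate block, 6 by DESeq2, 2 by limma on 12 libraries, 1 by edgeR on 12 libraries, 2 after correction for GC content and length, and 0 to 4 with a library left out. The calls among all genes were 143, 531, 366, 322, 374 and 6 to 475 in the same order, against 95. The interaction was lower for 21 with library totals alone (median -0.86, with all genes moved to -0.20), 3 after correction for GC content and length, and 3 to 17 with a library left out, with medians of -0.77 to -0.50. In the same order, 1848, 638 and 216 to 1733 of all genes were called, against 1314. The causes of these shifts were not tested, except that a fit with a library left out has fewer samples. The replicate numbers do not pair the libraries, since correlations of same-numbered libraries' deviations lay between -0.18 and 0.081; with the number as a block 14 members passed for TAC on the control diet (12 shared), 0 for TAC on the BCAA-free diet, 1 for the diet after sham (B2m), 42 for the diet after TAC (41 shared) and 13 for the interaction. Signs turned for these uncalled values. In TAC on the BCAA-free diet, Gbp2 was -0.0011 with TMM, -0.019 with library totals, -0.0013 by DESeq2 and -0.0027 by edgeR, and with a library left out Gbp2 ranged from -0.075 to 0.089, Igtp from -0.18 to 0.16, Usp18 from -0.098 to 0.39 and Mx1 from -0.086 to 0.22. In the diet after sham, Gbp2 was -0.0045 by DESeq2, -0.0059 by edgeR on 6 libraries and -0.0031 by edgeR on 12, and Ifih1 -0.051 after that correction; with a library left out Gbp2 ranged from -0.12 to 0.18, Ifih1 from -0.062 to 0.076, Oasl2 from -0.26 to 0.026 and Usp18 from -0.42 to 0.07. Low members such as Oas3, Zbp1 and Mx1 rest on few reads.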
